A study of Mus musculus with 10 samples.

Results

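The 31 genes described here encode enzymes and carriers of fatty acid oxidation in mitochondria and peroxisomes, a ketone body enzyme, lipid uptake and binding proteins, and further targets of the nuclear receptor PPARA, with Ppara itself. They were taken by name and matched to Ensembl identifiers, and they are 31 of the 55401 genes counted and 31 of the 14098 genes with enough counts to be tested. Counts came from polyA RNA-seq of whole livers from 10 female mouse fetuses at E18.5. In the 5 Mir483Pat-KO fetuses the microRNA gene Mir483 was missing from the copy of chromosome 7 inherited from the father, and the 5 WT fetuses were their littermates. The deletion was made with Cre in C57BL/6N embryonic stem cells before mice were derived, so it is carried by every tissue rather than by hepatocytes alone. The line came from 2 stem cell clones and was kept by crossing with C57BL/6J mice, and which clone the fetuses descend from is not stated. The maternal copy of Mir483 was intact in both groups.

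In fatty acid oxidation, long-chain fatty acids are carried into mitochondria as carnitine esters and then shortened stepwise, with electrons passed to the respiratory chain. Peroxisomes shorten very long chains, and the liver turns part of the resulting acetyl-CoA into ketone bodies that other organs burn. PPARA senses fatty acids and, together with its partner RXRA, raises the transcription of many of these genes in the fasting liver. The liver comes to rely on this pathway at birth, when milk fat replaces glucose from the placenta as a main fuel.

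Mir483 gives rise to a pair of mature microRNAs. Their RefSeq sequences (GRCm38.p6, minus strand) are shown because they are what the deletion removes. The seed, bases 2 to 8, is in capitals.
miR-483-3p (chr7:142654932-142654952): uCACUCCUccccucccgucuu
miR-483-5p (chr7:142654968-142654989): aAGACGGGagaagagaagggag
The seeds differ from each other. The letters AGGAGTG, complementary to the miR-483-3p seed, occurred in the longest annotated 3′ UTR of 1619 of the 12869 tested genes with such a UTR (12.6%), and of 3 of the 31 genes (9.68%), namely Cd36, Decr1 and Hsd17b4. The letters CCCGTCT, complementary to the miR-483-5p seed, occurred in 422 genes (3.28%) and in 0 of the 31. The stretches around the matches in Cd36 and Decr1, where the deleted microRNA could pair by its seed, are given on the transcribed strand of GRCm38 with the match in capitals.
Cd36 (chr5:17781947-17781973, minus strand): agctttgggcAGGAGTGctggattagt
Cd36 (chr5:17781709-17781735, minus strand): tagaggagaaAGGAGTGtgggaaacga
Decr1 (chr4:15918165-15918191, minus strand): gaagaagcttAGGAGTGgaggtaacct
A match of these letters is a description of the sequence and was not tested as a site of regulation.

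A PPARA response element is a direct repeat of the letters AGGTCA with 1 base between the copies. RefSeq promoter windows (GRCm38.p6, from 250 bases before to 50 bases after a transcript start) were found for 26 of the 31 genes and not for Acaa2, Angptl4, Decr1, Hsd17b4 and Vnn1. On either strand, AGGTCA occurred in 5340 of the 32851 windows searched (16.3%). Among the 27 windows of the 26 genes it occurred in 6, those of Acadm, Acadvl, Cd36, Cpt1a, Fabp1 and Plin2. The exact repeat AGGTCANAGGTCA occurred in 13 windows (0.0396%) and in 0 of the 27 windows of the 26 genes. With the fourth letter of each copy left free (AGGNCANAGGNCA, letters chosen after the windows had been searched), 125 windows held a match (0.381%), and 1 of them belonged to the 31 genes. It is the window of Fabp1, shown here because Fabp1 also had the highest level of the 31 genes in CPM per kilobase of exon and was lower in Mir483Pat-KO. Capitals mark the match, which lies on the minus strand from 67 to 55 bases before the start and overlaps 1 of the AGGTCA matches.
Fabp1 promoter (chr6:71199629-71199928, plus strand): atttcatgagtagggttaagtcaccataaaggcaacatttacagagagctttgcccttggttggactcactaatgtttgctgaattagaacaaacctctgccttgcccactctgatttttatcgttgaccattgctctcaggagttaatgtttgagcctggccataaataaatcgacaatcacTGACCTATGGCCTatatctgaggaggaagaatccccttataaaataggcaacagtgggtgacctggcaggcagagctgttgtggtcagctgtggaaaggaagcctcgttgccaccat
No binding was measured, so nothing about occupancy of these letters can be read from the data.

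Libraries held 10831350 to 14765880 counts. The deletion was checked first: WT libraries had 11, 10, 22, 21 and 12 counts of Mir483, and all 5 Mir483Pat-KO libraries had 0 (adjusted p = 0.00133). The numbers that identify the fetuses fell into a lower range (4 WT, 2 Mir483Pat-KO) and an upper range (1 WT, 3 Mir483Pat-KO), whose meaning the labels do not give. Library index numbers separated the genotypes, so their order and the genotype cannot be told apart. Of 9 hepatocyte markers, of which Alb was the most abundant, none was at 0 in any group. All 9 had a log2 fold change (Mir483Pat-KO over WT) below 0, with a median of −0.15, and 2 of them passed the test, the apolipoprotein gene Apoa1 (−0.30, adjusted p = 0.0262) and the urea cycle gene Cps1 (−0.65, adjusted p = 0.00407). Their summed level ran from 222710 to 249797 CPM (counts scaled to a common library size) in WT livers and from 199709 to 230228 CPM in Mir483Pat-KO (two-sided exact permutation test, p = 0.0238, adjusted p = 0.131 over 11 marker lists). Of 12 erythroid markers, of which Hbb-bs was the most abundant and none was at 0, 11 lay above 0 and 3 passed, and their sum ran from 16535 to 21250 CPM in WT livers and from 19365 to 27272 CPM in Mir483Pat-KO (exact permutation test, p = 0.0238, adjusted p = 0.131). Haemoglobin genes made up 1.33% ± 0.168 of WT and 1.88% ± 0.342 of Mir483Pat-KO counts (SD, n = 5, exact permutation test, p = 0.0159), a difference that was 0.166 percentage points in the lower range alone (p = 0.267). Neither of these 2 marker sums passed after adjustment. The sums of the other 9 lists (led among others by S100a9, Ppbp, Stab2, Reln, Spp1, Fabp4, Acta1 and Cela1) did not pass either (exact permutation tests, adjusted p = 0.233 for endothelial, 0.262 for mesenchymal and stellate, and 0.576 or more for the rest), and the muscle genes summed to 0.937 to 2.62 CPM per library. In bulk liver, fewer hepatocytes and less RNA per hepatocyte cannot be told apart.

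Among the 31 genes, 6 were lower in Mir483Pat-KO and 0 were higher (edgeR quasi-likelihood test, Benjamini-Hochberg adjusted p under 0.05 over all genes tested), and 25 did not pass. The 6 genes were Acaa1b, Ehhadh, Cpt1a, Fabp1, Plin2 and Acadvl, with levels 20.1% to 40.1% below WT. Across all genes tested, 2.76% were lower and 2.43% higher by the same rule. With a fold change over 1.5 asked for as well, 1 of the 31 was lower, Acaa1b, and 0 were higher, against 0.872% and 0.355% of all genes tested. At an unadjusted p under 0.05, 16 were lower and 0 higher, against 10.7% and 11.5% of all genes tested. The median log2 fold change of the 31 genes was −0.17 and that of all genes tested was 0.0042. The log2 fold change was below 0 for 26 of the 31 genes, as it was for 49.1% of all genes tested. All 5 Mir483Pat-KO values lay below all 5 WT values for 5 genes (Cpt1a, Slc25a20, Acadvl, Eci2 and Plin2), a pattern found in 3.26% of all genes tested, and above them for 0 genes, against 3.34% of all. At least 4 of the 5 Mir483Pat-KO values lay below all WT values for 13 of the 31 genes and for 8.2% of all genes tested.

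This count depended on what the libraries were scaled to. The 9 hepatocyte markers had a median log2 fold change of −0.15, and when libraries were scaled to these 9 markers, an alternative chosen after seeing the data, the median of all genes tested moved to 0.22. On that scale 1 of the 31 genes was lower (Acaa1b) and 5 were higher (Cd36, Pdk4, Hadh, Decr1 and Acadm), against 1.09% and 27.7% of all genes tested. Of the 31 genes, 12 lay below 0. The median of the 31 was 0.033 on that scale, where that of the 9 markers was 0.057. The median of the 31 less that of all genes tested was −0.18 on that scale and −0.18 before it. Within the lower identification number range, with 4 WT and 2 Mir483Pat-KO libraries, 0 of the 31 passed, as 0.138% of all genes tested were lower there. At an unadjusted p under 0.05, 10 of the 31 and 7.24% of all genes were lower, and the median of the 31 was −0.15, where that of the hepatocyte markers was −0.063. With the range as a covariate 11 were lower and 0 higher, against 3.85% and 4.58% of all genes. Leaving out either WT replicate 5 or Mir483Pat-KO replicate 4 left 3 genes that were lower, Cpt1a, Acadvl and Plin2, against 1.68% and 1.35% of all genes in these fits. What part of the lower levels goes with the share of hepatocytes or erythroid cells was not tested.

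**Figure D1:**
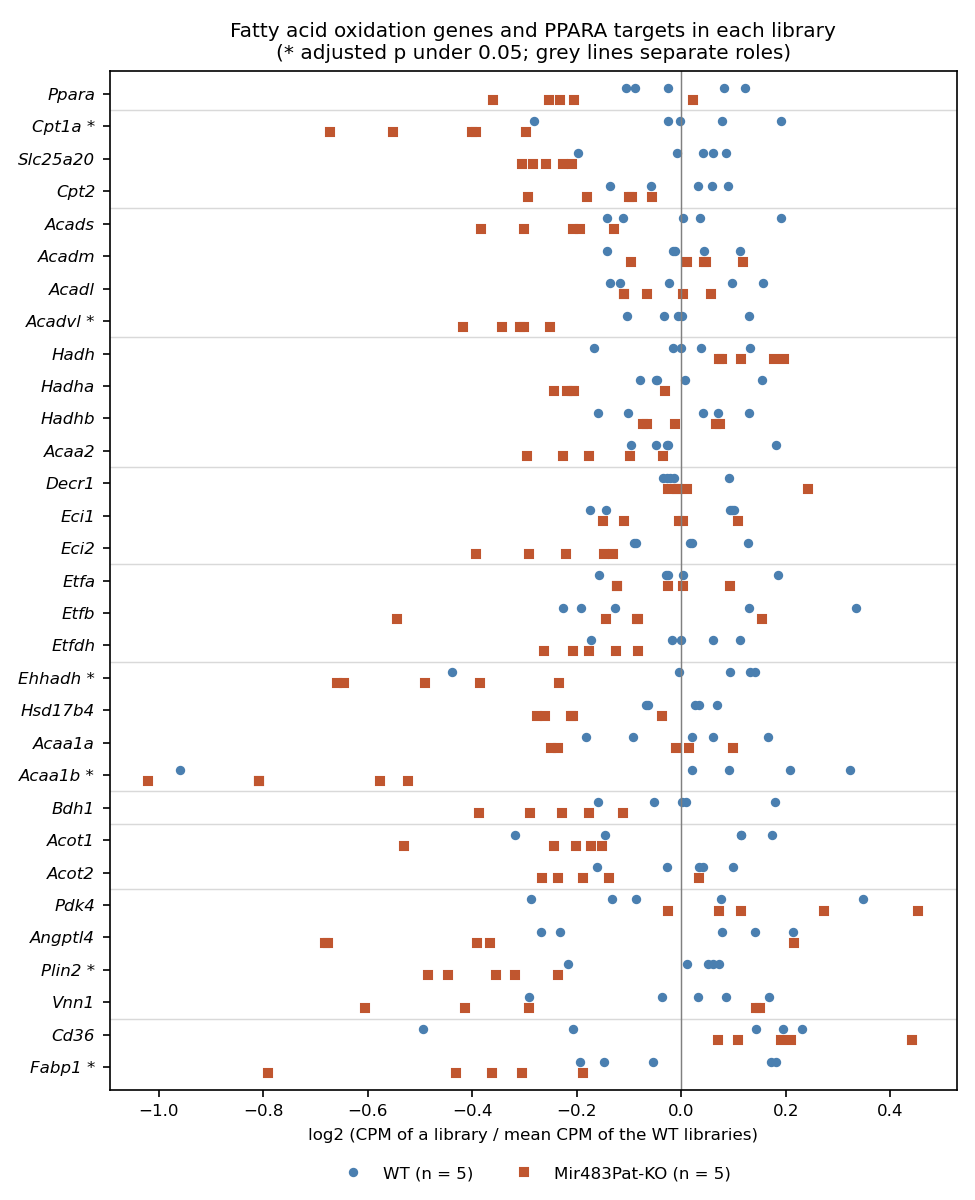
Level of each of the 31 genes in each library, as the log2 of its CPM over the mean CPM of the 5 WT libraries (x axis), with WT as blue circles and Mir483Pat-KO as orange squares. Genes are grouped by role and an asterisk marks an adjusted p under 0.05. The squares of Cpt1a, Slc25a20, Acadvl, Eci2 and Plin2 all lie to the left of the circles, and those of Hadhb and Etfa lie among them.

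Levels per kilobase of exon (CPM per kb, WT mean ± SD, n = 5) spanned the list widely. The length is that of all annotated exons of a gene together, 553 bases for Fabp1 and 8730 for Hadha. The order of the genes and their shares therefore depend on which transcripts are annotated. Fabp1, which binds fatty acids in the hepatocyte cytosol, stood highest at 922 ± 113 CPM per kb, 39.9% of the sum of the 31 genes. Acaa2, the mitochondrial thiolase that releases acetyl-CoA, followed at 459 ± 35.5 CPM per kb, 19.9% of the sum. Etfa, Acadl, Acadm and Acadvl lay between 93.0 and 104 CPM per kb with SDs of 5.51 to 9.06, so that neighbours in this order did not differ beyond their spread. Ppara stood at 26.6 ± 1.88 CPM per kb, the carnitine transferase Cpt1a at 17 ± 1.99 and its partner Cpt2 at 16.8 ± 1.06. The acyl-CoA thioesterases Acot1 and Acot2 were lowest, at 2.43 ± 0.34 and 1.11 ± 0.0749 CPM per kb. The liver expressed the full set, with no gene of the 31 at 0. Together the 31 genes made up 0.443% ± 0.0196 of WT and 0.406% ± 0.0135 of Mir483Pat-KO counts (SD, n = 5).

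**Figure D2:**
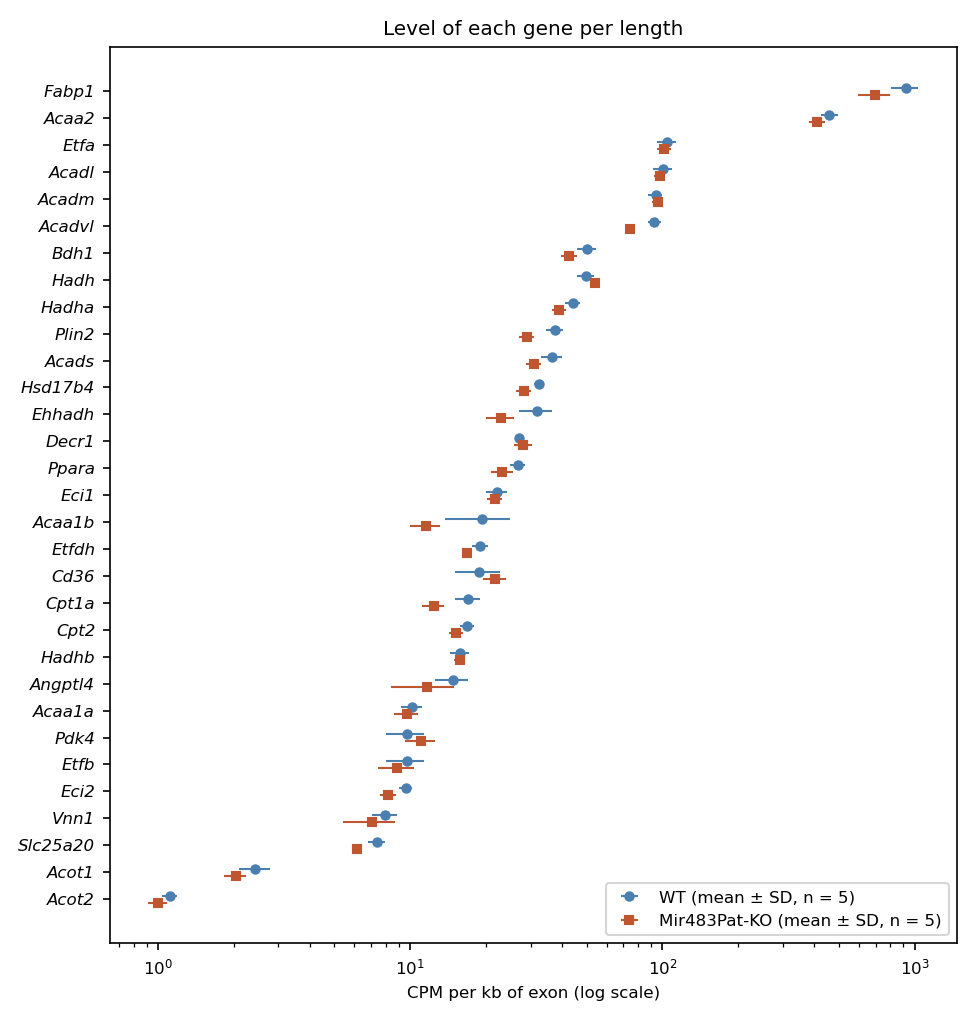
Mean level of each of the 31 genes in CPM per kilobase of exon (log x axis), ordered by the WT mean, with bars of 1 SD over 5 libraries (blue circles WT, orange squares Mir483Pat-KO). Fabp1 (922 CPM per kb in WT) and Acaa2 (459) stand well above the others, and Acot1 (2.43) and Acot2 (1.11) stand below them.

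Ppara (ENSMUSG00000022383, chromosome 15, 85734983 to 85802819, GRCm38), the receptor itself, had 96.2, 95, 108, 100.4 and 111 CPM in WT replicates 1 to 5 and 85.8, 79.6, 104, 88.6 and 87.0 CPM in Mir483Pat-KO replicates 1 to 5. Mir483Pat-KO replicate 3 lay among the WT libraries and the other four lay below all of them. The log2 fold change was −0.20 (SE 0.077) and did not pass (adjusted p = 0.137).

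The carnitine shuttle moves long-chain acyl groups across the inner mitochondrial membrane, and all 3 of its genes stood lower, of which 1 passed. Cpt1a (ENSMUSG00000024900, chromosome 19, 3322334 to 3385733), the outer membrane transferase that sets the rate of entry, had 129.6, 148, 137, 107 and 128 CPM in WT livers and 98.4, 81.4, 106, 88.5 and 98.8 CPM in Mir483Pat-KO. The groups did not overlap, although the lowest WT and the highest Mir483Pat-KO library lay about 1 CPM apart. Cpt1a fell from 129.8 ± 15.2 to 94.5 ± 9.55 CPM (SD, n = 5), which is −0.46 on the log2 scale (SE 0.09, adjusted p = 0.0102). Slc25a20, the carrier that exchanges acylcarnitine for carnitine, had 37.8, 35.4, 37.2, 31.1 and 36.7 CPM in WT livers and 30.8, 29.3, 28.9, 30.5 and 29.8 CPM in Mir483Pat-KO. The groups did not overlap here either, yet its log2 fold change of −0.26 (SE 0.072) missed the threshold narrowly (adjusted p = 0.0501). It passed under 8 of the 21 other settings. Cpt2, the inner membrane transferase, stood at 40.2 ± 2.55 and 36.4 ± 2.34 CPM (log2 fold change −0.14, adjusted p = 0.261).

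The acyl-CoA dehydrogenases carry out the opening step of each round and differ in the chain length they accept. Acadvl (ENSMUSG00000018574, chromosome 11, 70010183 to 70015411), for very long chains, had 249, 250.1, 244, 232 and 273 CPM in WT livers and 209.9, 187, 197, 202 and 203 CPM in Mir483Pat-KO, with no overlap. It fell by 0.32 on the log2 scale (SE 0.064, adjusted p = 0.0107), 20.1% below WT. Exons of Dvl2 on the opposite strand overlap 42.9% of its exonic bases, and whether counting used the strand is not stated. Dvl2 itself stood at 12.4 CPM in WT livers and 12.8 CPM in Mir483Pat-KO (log2 fold change 0.047, adjusted p = 0.830). Acads, for short chains, lay at 75.1 to 94.6 CPM in WT livers and 63.5 to 75.8 CPM in Mir483Pat-KO (log2 fold change −0.24, adjusted p = 0.0731). The genes for medium and long chains showed smaller differences: Acadm stood at 367 ± 23.7 and 374 ± 20 CPM (log2 fold change 0.026, 95% interval −0.13 to 0.18), and Acadl at 202 ± 18.2 and 196 ± 10 CPM (−0.044, interval −0.21 to 0.12). Both intervals lie above the value of Acadvl, though the difference between these genes was not tested.

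None of the 4 genes for the later steps of the mitochondrial spiral passed. Hadha and Hadhb encode the subunits of the trifunctional protein, which acts on long chains and whose genes lie head to head on chromosome 5. Hadha stood at 385 ± 25.6 CPM in WT livers and 340.0 ± 20.7 CPM in Mir483Pat-KO, where replicate 1 had 377 CPM and the other four 325 to 334 (log2 fold change −0.18, adjusted p = 0.136). Hadhb stood at 104 CPM in both groups (−0.0007, interval −0.16 to 0.16), and 18.1% of its 50-base exonic windows also occur in the gene model Gm13910. The difference between the subunits was not tested. Acaa2 stood at 696 ± 53.8 and 621 ± 44.4 CPM (log2 fold change −0.16, adjusted p = 0.203). Hadh, the dehydrogenase for shorter chains, lay above 0: it had 219.8, 254, 247, 244 and 270.4 CPM in WT livers and 261, 259.6, 267, 283 and 279 CPM in Mir483Pat-KO (log2 fold change 0.13, SE 0.067, adjusted p = 0.275). The groups overlapped, with 2 of the 5 Mir483Pat-KO libraries above all WT libraries.

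Unsaturated chains need an additional reductase and isomerases before they can be shortened, and of these 3 genes none passed. Eci2, an isomerase found in peroxisomes and mitochondria, had 49.9, 50, 53.9, 53.8 and 58.0 CPM in WT livers and 48.5, 40.5, 45.6, 47.9 and 43.4 CPM in Mir483Pat-KO. Its groups did not overlap, and the log2 fold change was −0.24 (SE 0.071, adjusted p = 0.0649). The mitochondrial isomerase Eci1 (46.9 ± 4.48 and 46.0 ± 3.26 CPM, log2 fold change −0.028) and the reductase Decr1 (105 ± 3.92 and 109 ± 8.87 CPM, 0.046) had adjusted p-values of 0.875 and 0.733. Decr1, 1 of the 3 genes with a miR-483-3p seed match, changed direction to −0.013 with GC content and length offsets.

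Electrons from the dehydrogenases pass to the electron transfer flavoprotein (Etfa and Etfb) and on to its oxidoreductase (Etfdh). The 3 genes had log2 fold changes of −0.033, −0.12 and −0.17 and adjusted p-values of 0.834, 0.633 and 0.152. Etfdh ranged from 126 to 153 CPM in WT livers and from 118 to 134 CPM in Mir483Pat-KO, with 3 of the 5 Mir483Pat-KO libraries below all WT libraries. The level of Etfb (11.3 ± 1.96 and 10.3 ± 1.72 CPM) is uncertain, because exons of the gene model Gm45233 on the same strand cover 58.2% of its exonic bases and Gm45233 itself had 0 counts.

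Of the 4 genes for peroxisomal enzymes, 2 passed, both lower in Mir483Pat-KO. Ehhadh (ENSMUSG00000022853, chromosome 16, 21761287 to 21787807), the peroxisomal bifunctional enzyme, had 103, 69.7, 101, 94.3 and 104 CPM in WT livers and 80.3, 67.3, 72.3, 59.8 and 60.4 CPM in Mir483Pat-KO. WT replicate 2 lay among the Mir483Pat-KO libraries and the other four WT libraries lay above all of them. Ehhadh fell from 94.5 ± 14.4 to 68.0 ± 8.61 CPM (log2 fold change −0.47, SE 0.11, adjusted p = 0.0203), and the call was lost when either WT replicate 5 or Mir483Pat-KO replicate 4 was left out. Acaa1b (ENSMUSG00000010651, chromosome 9, 119148023 to 119157093), a peroxisomal thiolase, had 47.3, 19.4, 38.3, 40.3 and 43.7 CPM in WT livers and 26.3, 18.6, 21.6, 25.4 and 21.6 CPM in Mir483Pat-KO. Again WT replicate 2 stood with the Mir483Pat-KO libraries and the other four WT libraries stood above all of them. Acaa1b fell from 37.8 ± 10.8 to 22.7 ± 3.12 CPM (log2 fold change −0.74, SE 0.17, adjusted p = 0.0246). Of the 10 fits that left out a library, 5 lost the call (WT replicate 4 or 5, Mir483Pat-KO replicate 2, 3 or 4). Acaa1b also lost it in the robust quasi-likelihood fit (adjusted p = 0.0680). Its paralog Acaa1a stood at 44.8 ± 4.19 and 42.7 ± 4.59 CPM (log2 fold change −0.070, adjusted p = 0.677). The split between these paralogs is uncertain, since 30.5% of the 50-base exonic windows of Acaa1b also occur in Acaa1a, and 12.4% of those of Acaa1a in Acaa1b. Hsd17b4, the other bifunctional enzyme, stood at 110.3 ± 4.69 and 96.3 ± 6.62 CPM (log2 fold change −0.20, adjusted p = 0.0885), with 4 of the 5 Mir483Pat-KO libraries below all WT libraries.

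**Figure D3:**
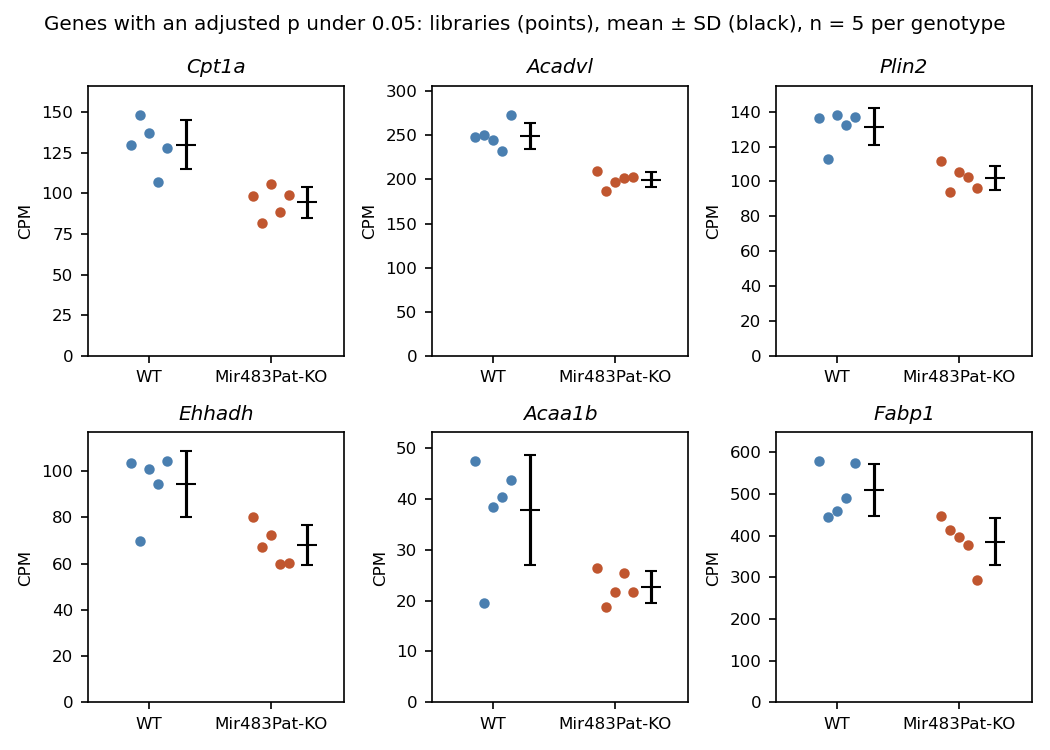
CPM of the 6 genes with an adjusted p under 0.05 in each library (points, 5 per genotype), with the mean and 1 SD in black and each y axis starting at 0. In Ehhadh and Acaa1b a low WT library, replicate 2 (69.7 and 19.4 CPM), lies among the Mir483Pat-KO libraries, while in Cpt1a, Acadvl and Plin2 the groups do not overlap.

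Bdh1, which interconverts the ketone bodies acetoacetate and hydroxybutyrate, stood at 195 ± 16.9 CPM in WT livers and 166 ± 12 CPM in Mir483Pat-KO, with 4 of 5 libraries below all WT (log2 fold change −0.24, adjusted p = 0.0766). The acyl-CoA thioesterases Acot1 and Acot2, which free fatty acids from CoA in cytosol and mitochondria, had log2 fold changes of −0.25 and −0.15 (adjusted p = 0.241 and 0.642). They are close paralogs at low level, and 24.5% of the 50-base windows of Acot2 also occur in Acot1.

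Of the 4 further PPARA targets 1 passed. Plin2 (ENSMUSG00000028494, chromosome 4, 86648386 to 86670060), which coats lipid droplets, had 136, 113, 138, 132 and 137 CPM in WT livers and 111, 93.8, 105, 103 and 96.4 CPM in Mir483Pat-KO. Its groups did not overlap, with WT replicate 2 again the lowest WT library. Plin2 fell by 0.37 on the log2 scale (SE 0.073, adjusted p = 0.0108). Angptl4, a secreted inhibitor of lipoprotein lipase, had 43.4, 57.6, 55.2, 44.5 and 60.6 CPM in WT livers and 32.7, 32.6, 60.7, 39.9 and 40.5 CPM in Mir483Pat-KO. In Mir483Pat-KO replicate 3 it stood above every WT library and in the other four below every WT library, and the log2 fold change of −0.34 (SE 0.15) did not pass (adjusted p = 0.186). It passed under 3 of the 21 other settings, without that library (−0.53), without the low-count filter and with the range covariate. Pdk4, a kinase that shuts off pyruvate dehydrogenase, lay above 0, with 31.1, 43.3, 35.9, 27.9 and 32.1 CPM in WT livers and 36.8, 46.6, 41.1, 35.8 and 33.4 CPM in Mir483Pat-KO. The groups overlapped and the log2 fold change was 0.19 (SE 0.11, adjusted p = 0.352). Vnn1, a pantetheinase, ranged from 15.7 to 21.6 CPM in WT livers and from 12.6 to 21.3 CPM in Mir483Pat-KO (log2 fold change −0.17, adjusted p = 0.487).

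The uptake and binding genes lay on opposite sides of 0. Fabp1 (ENSMUSG00000054422, chromosome 6, 71199827 to 71205023), whose promoter is printed above, had 578, 446, 460.1, 492 and 574 CPM in WT livers and 448, 413, 397, 378 and 295 CPM in Mir483Pat-KO. The groups met only at WT replicate 2 and Mir483Pat-KO replicate 1, and the other four Mir483Pat-KO values lay below all WT values. Fabp1 fell from 510.0 ± 62.7 to 386 ± 57.1 CPM (log2 fold change −0.40, SE 0.10, adjusted p = 0.0383). This call was the least stable of the 6, and it was lost in 7 of the 10 fits that left out a library, all but those without WT replicate 2, WT replicate 3 and Mir483Pat-KO replicate 1. Cd36, a membrane receptor that takes up long-chain fatty acids, had 74.5, 79.2, 77.2, 58.4 and 47.8 CPM in WT livers and 72.7, 70.8, 91.6, 78.0 and 76.9 CPM in Mir483Pat-KO (log2 fold change 0.21, SE 0.12, adjusted p = 0.317). WT replicates 4 and 5 were lower than the other eight libraries, and within the lower identification number range the difference was −0.013.

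**Figure D4:**
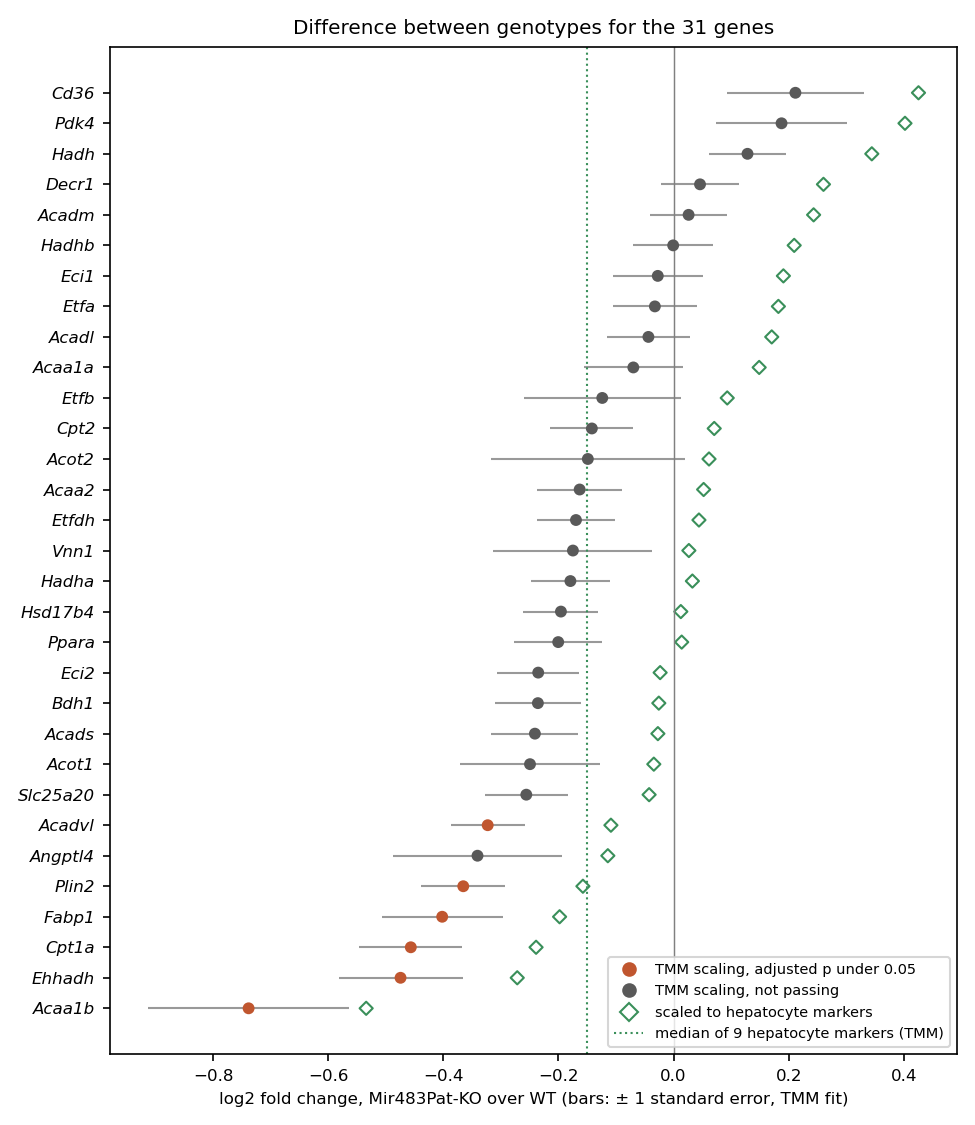
Log2 fold change (Mir483Pat-KO over WT) of the 31 genes, ordered by size, with bars of 1 standard error (filled circles, orange where the adjusted p is under 0.05), and the same with libraries scaled to 9 hepatocyte markers (open diamonds). The dotted line is the median of the hepatocyte markers (−0.15). With the usual scaling 26 of the 31 genes lie below 0, with the hepatocyte scaling 12 do.

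A list of 99 other genes of the same pathway was read out from the same fit, and 92 of them were tested. The list was chosen with earlier results of these data known, so its counts are a description and no independent check. Of these, 15 were lower, 2 higher and 75 did not pass, against 2.76% lower and 2.43% higher of all genes tested. The log2 fold change was below 0 for 70 of the 92, against 49.1% of all genes, and its median was −0.15. In 12 of the 92 all Mir483Pat-KO values lay below all WT values, as in 3.26% of all genes. Scaled to the hepatocyte markers, where 1.09% of all genes tested were lower and 27.7% higher, 5 of these genes were lower and 13 higher, with a median of 0.052. Within the lower identification number range 0 passed. Log2 fold changes of all genes tested went down with GC content (Spearman rho −0.44 over genes, which do not count as independent replicates), and with GC content and length offsets Gpd1, Mlycd, Creb3l3, Ech1, Acsm1 and Plin4 lost their calls. Other genes gained one, so that with these offsets 13 were lower and 3 higher, and 7 of the 31 genes were lower, against 2.5% lower and 2.09% higher of all genes. The part of GC content in these results was not tested further. Leaving out WT replicate 5, Mir483Pat-KO replicate 2 or Mir483Pat-KO replicate 4 lowered the 15 to 9, 9 and 8, where 1.68%, 1.58% and 1.35% of all genes were lower, and Crot, 1 of the 2 genes that rose, lost its call without WT replicate 4 and without Mir483Pat-KO replicates 3 or 4.

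The omega oxidation group, which hydroxylates fatty acids at the far end of the chain, had the lowest median (−0.50). Of its 6 tested genes 3 were lower and 0 higher, against 2.76% and 2.43% of all genes tested. Cyp4a14 and Cyp4a10, fatty acid hydroxylases that are classical PPARA targets, had the largest decreases: Cyp4a14 fell from 53.9 ± 8.53 to 24.3 ± 10.4 CPM (log2 fold change −1.15, SE 0.20, adjusted p = 0.00571) and Cyp4a10 from 40.3 ± 6.85 to 20.7 ± 7.96 CPM (−0.96, SE 0.20, adjusted p = 0.0136). In both, all 5 Mir483Pat-KO values lay below all WT values, and Mir483Pat-KO replicate 1 was close to WT for Cyp4a14 (40.4 CPM, where the lowest WT library had 42.8). Both were also lower when scaled to the hepatocyte markers, neither passed in the lower identification number range alone, and the Cyp4a10 call was lost in the robust quasi-likelihood fit (adjusted p = 0.0628). Aldh3a2, a fatty aldehyde dehydrogenase, fell by 0.29 (adjusted p = 0.0208). Its call was lost when scaled to the hepatocyte markers (log2 fold change −0.082, adjusted p = 0.488).

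Among 23 other peroxisomal genes 5 were lower and 1 higher, against 2.76% and 2.43% of all genes tested. Those that fell included Ephx2, a lipid epoxide hydrolase (−0.46, adjusted p = 0.00416), Crat, a carnitine acetyltransferase (−0.37, 0.0187), Scp2, a lipid carrier and thiolase (−0.33, 0.0208), and Ech1, an isomerase (−0.28, 0.0312). The Ech1 call was lost in 6 of the 21 alternatives, including those without WT replicate 5 or Mir483Pat-KO replicate 2 or 5. The calls of Crat and Scp2 were lost without Mir483Pat-KO replicate 4. Scaled to the hepatocyte markers, Ech1, Crat and Scp2 did not pass, and Ephx2 did. Crot, which makes carnitine esters of chains shortened in peroxisomes, rose from 67.8 ± 9.59 to 92.6 ± 11.7 CPM (0.45, adjusted p = 0.0210).

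Of 11 tested lipid droplet and lipolysis genes 2 were lower and 1 higher. For this group and those below, 2.76% of all genes tested were lower and 2.43% higher. Plin5 (−0.52, adjusted p = 0.0058) and Plin4 (−0.63, adjusted p = 0.0472), which coat droplets as Plin2 does, fell, whereas Hilpda, a droplet protein that inhibits lipolysis, rose from 11.6 ± 2.28 to 19.6 ± 3.69 CPM (0.76, adjusted p = 0.00966). The Plin4 call was lost in 13 of the 21 alternatives, including limma-voom, the range covariate and 8 of the 10 that left out a library. For Hilpda 4 of the 5 Mir483Pat-KO values lay above all WT values. Of 17 activation and transport genes 2 passed, Slc27a5, a bile acid and fatty acid ligase (−0.59, adjusted p = 0.00966), and Acsm1, a medium-chain ligase (−0.25, adjusted p = 0.0425), a call lost in 13 of the 21 alternatives, including 9 of the 10 that left out a library. Of 11 tested genes of mitochondrial oxidation and its control 1 passed, Mlycd, which removes the CPT1A inhibitor malonyl-CoA (−0.41, adjusted p = 0.0311), a call lost in 7 of the 21 alternatives, including those without WT replicate 5 or Mir483Pat-KO replicate 2, 3 or 4. Gpd1, a glycerol phosphate dehydrogenase, was the 1 of 6 fuel choice genes to pass (−0.34, adjusted p = 0.0143). Its call was lost when scaled to the hepatocyte markers (adjusted p = 0.231).

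Among 12 tested nuclear receptors, cofactors and secreted factors 1 passed, where 2.76% of all genes tested were lower and 2.43% higher. It was Creb3l3, a liver transcription factor that works with PPARA (−0.31, adjusted p = 0.0272). This call was lost in 6 of the 21 alternatives, including those without WT replicate 5 or Mir483Pat-KO replicate 2 or 4. The receptor partner Rxra stood at 212 ± 21.4 and 176 ± 13.1 CPM (−0.27, adjusted p = 0.0579) and the coactivator Ppargc1a at 24.8 ± 7.26 and 21.6 ± 2.47 CPM (−0.20, adjusted p = 0.468). Fgf21, a hormone induced by PPARA in fasting, had too few counts to be tested (0.239 and 0.179 CPM). None of the 6 tested ketone body genes passed.

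**Figure D5:**
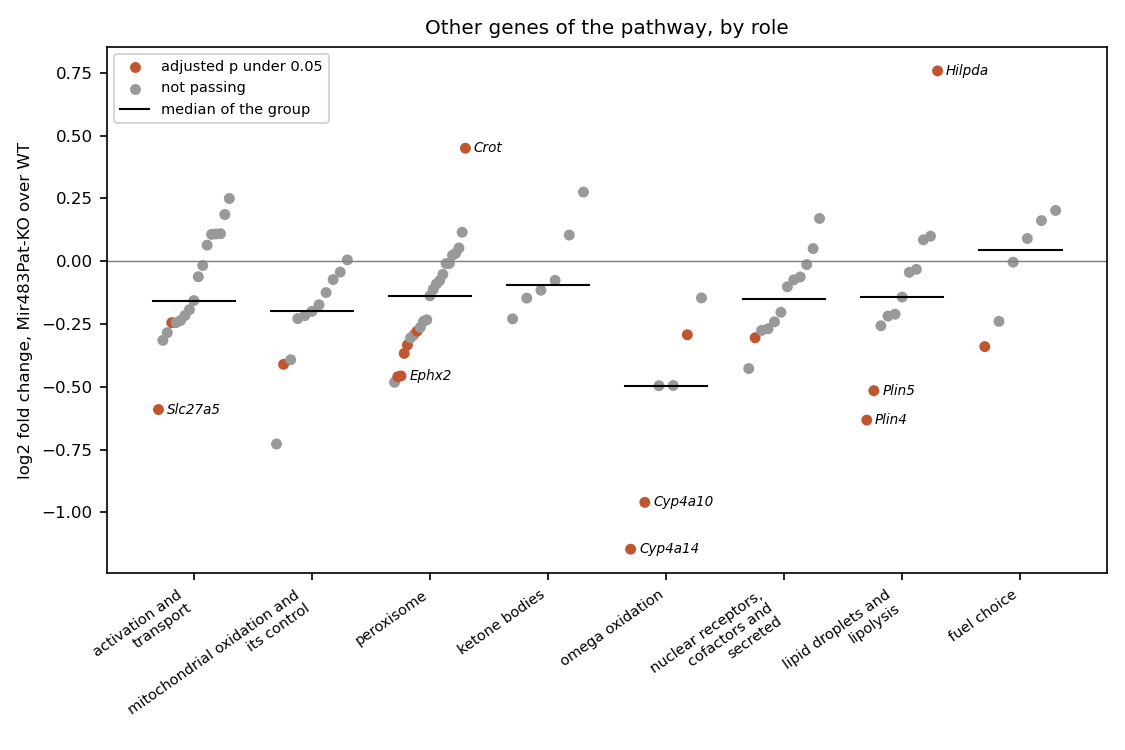
Log2 fold change (Mir483Pat-KO over WT) of the 92 tested other genes of the pathway, in 8 groups by role, with the median of each group as a line and genes with an adjusted p under 0.05 in orange. The omega oxidation group has the lowest median (−0.50) and holds Cyp4a14 and Cyp4a10, and Hilpda and Crot are the 2 genes that rose.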

How the data were processed

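Livers of 10 female fetuses at E18.5 (5 WT, 5 Mir483Pat-KO, grouped by the sample labels) were profiled with stranded polyA libraries. The authors aligned read pairs with STAR to GRCm38 and deposited raw, unnormalized counts for each Ensembl gene. Neither the strand setting nor the treatment of multimapping reads is given in the sources used here. The test was the quasi-likelihood F-test of edgeR 4.0.16 in R 4.3.3 (filterByExpr defaults, TMM, no covariate), with Benjamini-Hochberg adjustment over 14098 genes. The common biological coefficient of variation was 0.111. CPM use TMM effective library sizes, and intervals of log2 fold changes are 95%. Replicates were checked for duplicated libraries, and the most similar of 20 pairs within a genotype had a chi-square of 4.86 per degree of freedom, more than counting noise gives. Single values per library were compared by two-sided exact permutation over 252 arrangements (smallest p 0.00794).

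The members, the gene lists, the markers and the tests were chosen with earlier results of these data known. All 31 genes are named, and of the other pathway genes those that passed, with Rxra, Ppargc1a and Fgf21. Results that need items withheld for evaluation are not reported here. Gene models, with 3′ UTRs, were those of GENCODE M21 (GRCm38), and microRNA and promoter sequences from RefSeq (GRCm38.p6). As alternatives the scaling was changed to RLE, the test to the Wald test of DESeq2 1.42.0, to limma-voom (limma 3.58.1) or to the robust fit, and the filter was dropped or set to a minimum of 10 counts per library. Others used the replicate block, took the range of identification numbers as a covariate, kept its lower part alone, removed GC content and length trends by offsets, or left out each library in turn. Scaling to hepatocyte markers was added after the data were seen. On simulated data for this comparison (13974 genes, 200 changed by a fold of 2) edgeR recovered 89.5% of the changed genes, and the share of false calls was 6.28%. Changes smaller than a fold of 2, as in all 31 genes, were not simulated. Figures were drawn with Python 3.11.15 and matplotlib 3.10.9.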

Additional observations from a re-analysis of the deposited data

Results flagged for a closer look

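In 64 groups of 5 libraries (each of the 31 genes and the haemoglobin share, per genotype) the highest or lowest library was compared with the other four, and 9 stood apart by Dixon's criterion, where chance gives about 3.2. In WT these were Ehhadh in replicate 2 (69.7 CPM, the others 94.3 to 104), Plin2 in replicate 2 (113 CPM, the others 132 to 138), Acaa2 in replicate 5 (789 CPM, the others 651 to 684) and Decr1 in replicate 5 (112 CPM, the others 103 to 104). In Mir483Pat-KO they were Hadha in replicate 1 (376.5 CPM, the others 325 to 334), Hsd17b4 in replicate 1 (108 CPM, the others 91.0 to 95.5), Acot1 in replicate 2 (6.58 CPM, the others 8.03 to 8.56), Angptl4 in replicate 3 (60.7 CPM, the others 32.6 to 40.5) and Decr1 in replicate 4 (124 CPM, the others 103 to 106). Of the genes that passed, Plin2 had a log2 fold change of −0.42 and Ehhadh one of −0.57 without WT replicate 2.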

How the results depend on the processing

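Of the 31 genes, Cpt1a, Acadvl and Plin2 passed in 19 of the 21 alternatives, all but the lower identification number range alone and the scaling to hepatocyte markers. The number of the 31 that were lower was 11 by DESeq2, 11 with the range as a covariate, 0 in the lower range alone, 1 with hepatocyte scaling (5 higher) and 3 to 7 with a library left out. Of all genes, 4.32% were lower by DESeq2, 3.85% with the range as a covariate and 0.138% in the lower range alone, against 2.76% in the main fit. With hepatocyte scaling 1.09% of all genes were lower and 27.7% higher, and with a library left out 1.35 to 3.34% were lower. The 1 gene with a fold change over 1.5 became 0 in the robust fit, the lower range and the hepatocyte scaling, and 0 to 1 with a library left out. Of the other pathway genes, 0 were lower and 0 higher in the lower range, 5 and 13 with hepatocyte scaling, and 8 to 20 and 1 to 3 with a library left out. With the replicate block 23 of them were lower and 4 higher, and 9 of the 31 genes were lower, against 4.23% lower and 5.26% higher of all genes in that fit. Same-numbered libraries deviated together at a mean r of 0.0871 across genes (−0.0496 to 0.261) and 2 of the 5 correlated best with their own number, so they were treated as unpaired. Hepatocyte scaling, which moved the median of all genes from 0.0042 to 0.22 and shifted genes by about the same amount, turned the medians to 0.033 (the 31 genes) and 0.052 (other pathway genes) and the log2 fold changes of Ppara (0.014), Cpt2 (0.071), Acadl (0.17), Hadha (0.033), Hadhb (0.21), Acaa2 (0.052), Eci1 (0.19), Etfa (0.18), Etfb (0.093), Etfdh (0.044), Hsd17b4 (0.013), Acaa1a (0.15), Acot2 (0.062), Vnn1 (0.027) and Ppargc1a (0.016). Under other settings, Hadhb turned to 0.0021 by limma-voom, 0.0013 without the filter, 0.0017 with the replicate block and 0.035 with the range covariate, which turned Acadm to −0.023. In the lower range Acadm was −0.014, Acadl 0.020, Vnn1 0.13 and Cd36 −0.013. Offsets for GC content and length gave Decr1 −0.013, Eci1 0.028 and Acaa1a 0.027. With a library left out, Acadm ran from −0.016 to 0.056, Decr1 from −0.015 to 0.070, Etfa from −0.078 to 0.013 and Hadhb from −0.038 to 0.027, and the summed markers differed by −2.06 to 3.03 CPM (B lymphoid), −8.44 to 5.10 (biliary), −30.8 to 9.34 (megakaryocyte) and −11.5 to 1.26 (pancreas). In the lower range the haemoglobin difference was 0.166 percentage points and the sums of megakaryocyte (7.48 CPM), B lymphoid (−1.54) and biliary (0.971) markers changed sign. The cause of these changes was not tested. At this depth and spread the smallest change that passed among the 31 genes was −0.32 on the log2 scale (Acadvl).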

Other observations

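Libraries differed in how far the pathway as a whole stood from the middle. WT replicate 5 was the highest library for 11 of the 31 genes, and Mir483Pat-KO replicate 2 was the lowest for 12. WT replicate 2 was the lowest WT library for Ehhadh, Acaa1b, Plin2 and Fabp1, and also for Slc27a5 (67.9 CPM) and Cyp4a10 (33.3 CPM), genes picked out after their values were seen.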
